A study of Mus musculus with 42 samples.

Results

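The nuclear-encoded genes of the mitochondrial respiratory chain were examined in RNA from mouse liver and from the HA-tagged ribosomes of that liver. Members were all protein-coding genes of the files whose symbol starts with Nduf, Uqcr, Atp5 or Cox followed by a digit from 4 to 8, or is Sdha, Sdhb, Sdhc or Sdhd. This gave 93 of the 47729 genes in the files, of which 21697 were protein-coding. There were 44 members of complex I (7 core subunits, 29 accessory subunits and 8 assembly factors), 4 of complex II, 8 of complex III, 20 of complex IV and 17 of ATP synthase. Ndufa4, Ndufa4l2 and Cox7a2l were placed with complex IV, and 11 symbols of the same stems that are not protein-coding were left out.

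Complexes I and II pass electrons from NADH and succinate to ubiquinone, complex III hands them to cytochrome c, complex IV reduces oxygen, and ATP synthase uses the resulting proton gradient to make ATP. Most subunits are encoded in the nucleus, translated on cytosolic ribosomes and imported, while a small core is encoded and translated inside the mitochondrion. Liver cells, hepatocytes above all, are rich in mitochondria, and several subunits of complex IV have a second isoform that is used mainly in heart and skeletal muscle, lung or testis.

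All mice carried Gfi1 Cre/+ and Rpl22 HA/HA, so that cells with a history of Gfi1 promoter activity carry the HA-tagged ribosomal protein RPL22. Gfi1 encodes a transcription factor of blood cells, and Cre was driven by its locus. RNA was taken from whole homogenate (input) and from the anti-HA precipitate (IP) of 3 untreated mice. The growth protocol gives their age as P30, whereas a field of the labels gives P1. Each of the 7 protocols was run on both fractions of the 3 mice, which gives 42 libraries in 14 groups of 3: NEB, NuGEN, SMARTer, SMARTseq4 and TruSeq4 with 4 ng of RNA, SMARTseq0.25 with 0.25 ng and TruSeq70 with 70 ng. The groups used here hold no IP from mice without Cre, so RNA that stuck to the beads cannot be told apart from RNA on tagged ribosomes. The same 3 mice were used in every protocol, and a finding repeated in a second protocol is therefore not a second biological replicate.

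The libraries labelled input and IP of replicate 3 went against their labels in NEB, NuGEN, SMARTer and TruSeq4, and their fractions were exchanged here, as the study's own table of detected features has them. As labelled, the Kupffer cell gene Clec4f was higher and the hepatocyte gene Alb lower in the IP of every mouse in 3 of 7 protocols, and after the exchange in 7 of 7. Counts of members for these protocols are given both ways below. Totals ran from 3223153 to 45466334 exon counts in 36 libraries and from 464199 to 762562 in the 6 SMARTer libraries, for which RPKM was used instead. In TruSeq70 the 10 hepatocyte markers were all lower in IP samples (median log2 change -2.48), and 10 of 10 Kupffer cell, 6 of 7 erythroid, 6 of 6 T cell and 4 of 4 B cell markers were higher. Of the markers of other cells, 3 of 7 sinusoidal endothelial and 5 of 6 stellate cell genes were lower, and 4 of 6 tested neutrophil genes were higher. The IP libraries therefore held a different mix of cell types from the input, and for all results below fewer cells of a type and less RNA per cell cannot be told apart.

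The comparison of IP samples with input in TruSeq70, the protocol with the largest amount of RNA, asked which respiratory chain genes were under- or over-represented on the tagged ribosomes. Of the 93 members 88 had enough counts to be tested, and 79 of these had a lower value in IP samples. Lower levels passed the test (edgeR quasi-likelihood, adjusted p under 0.05 over all genes) for 38 members, against 16.7% of all 14707 genes tested, and a higher level for 1, against 18.1%. The median log2 change of IP minus input was -0.68 over the members and -0.03 over all genes, and the middle 50% of members lay between -1.08 and -0.35. Leaving out mouse 1 gave 45 members lower, whereas leaving out mouse 2 or mouse 3 gave 17 and 15, and 14 members were lower with each mouse left out in turn: Atp5a1, Atp5b, Atp5c1, Atp5d, Cox7b, Ndufa10, Ndufa9, Ndufaf6, Ndufs1, Ndufs3, Ndufv1, Sdha, Sdhb and Uqcrc2. Over all genes tested, the number lower went from 2458 to 2066, 1395 and 1316 without mouse 1, 2 and 3.

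**Figure D1:**
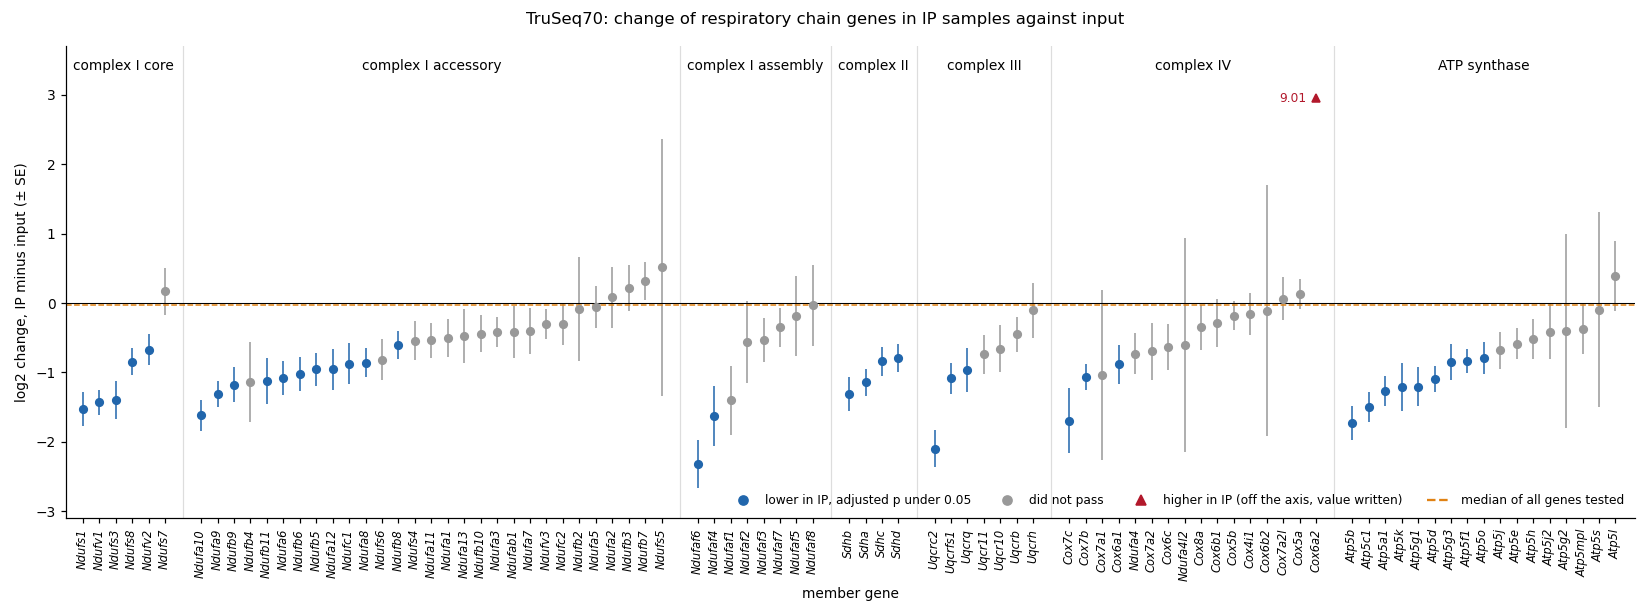
The log2 change of IP minus input in TruSeq70 is plotted for 87 of the 88 tested members, grouped by complex and role, with the standard error of the fit. Most points lie under 0 and under the dashed median of all genes, all 4 complex II genes passed the test, and Cox6a2 is drawn as a triangle because its fitted value, which depends on the prior count, lies off the axis.

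The core subunits of complex I, which carry the flavin and iron-sulfur clusters, were lower in 6 of 7 cases with a median log2 change of -0.88. Ndufs1, the largest core subunit, had 121, 106 and 124 normalised CPM (exon counts scaled to the same library total with TMM factors) in the input of mice 1, 2 and 3 and 28.0, 43.5 and 50.7 in the IP. The groups did not overlap and the log2 change was -1.52 ± 0.24 (SE, adjusted p = 0.00129). Ndufv1, which binds the flavin and takes the electrons from NADH, fell by 1.43 ± 0.18 on the log2 scale (adjusted p = 0.000345). Ndufs7, the core subunit with the last iron-sulfur cluster of the chain, was the exception. Its input values were 122, 142 and 186 normalised CPM and its IP values 257, 94.5 and 155, so that the fractions overlapped and the value of mouse 1 lay opposite to those of mice 2 and 3 (log2 change 0.17 ± 0.34, adjusted p = 0.757).

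The accessory subunits of complex I, which surround the core, spread more widely, with 11 of 29 lower and a median of -0.54. Ndufa10, a matrix-side subunit, was lowest. It had 165, 181 and 233 normalised CPM in input and 51.4, 75.9 and 61.7 in IP samples (log2 change -1.61 ± 0.22, adjusted p = 0.000556). Ndufb10, another accessory subunit, had 212, 197 and 248 normalised CPM in input and 226, 144 and 115 in IP samples, and the groups overlapped (adjusted p = 0.238). Ndufb7, Ndufb3, Ndufa2 and Ndufs5 had positive log2 values that did not pass, of which that of Ndufb7 was 0.32 ± 0.27 and that of Ndufs5, with under 2 normalised CPM in every library, was 0.51 ± 1.85. The assembly factors, which build complex I and do not stay in it, were lower in 2 of 8 cases, against 16.7% of all genes tested. Ndufaf6 had the strongest fall of all members, with 24.9, 26.8 and 21.7 normalised CPM in input and 6.70, 3.80 and 4.20 in IP samples (log2 change -2.32 ± 0.34, adjusted p = 0.000764). Ndufaf8, by contrast, had 64.8 normalised CPM in the IP of mouse 1 and 16.2 and 10.8 in those of mice 2 and 3, on both sides of its input values of 26.7 to 35.3.

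Complex II, succinate dehydrogenase, was lower in all 4 subunits, with a median log2 change of -0.99. Sdhb, the iron-sulfur subunit, had 327, 318 and 527 normalised CPM in input and 177, 139 and 157 in IP samples (log2 change -1.31 ± 0.24, adjusted p = 0.00267). Sdhd, a membrane anchor, had 331, 385 and 382 normalised CPM in input and 263, 187 and 183 in IP samples (log2 change -0.80 ± 0.20, adjusted p = 0.0145). Its call was lost when mouse 2 or mouse 3 was left out, while those of Sdha and Sdhb were kept with any mouse left out. In complex III 3 of 7 tested members were lower. Uqcrc1, the other core protein, was not tested, since it had 0 exon counts in all 6 TruSeq70 libraries. Uqcrc2, a core protein on the matrix side of the complex (GRCm38 chr7:120635176-120659524, plus strand), had 248, 223 and 271 normalised CPM in input and 38.1, 74.5 and 61.0 in IP samples. It was 4.28-fold lower (log2 change -2.10 ± 0.26, adjusted p = 0.000302), the most of the subunits proper. Uqcrh, the hinge protein, had 193 normalised CPM in the IP of mouse 1 and 64.7 and 67.9 in those of mice 2 and 3, around input values of 104 to 130, and did not pass (adjusted p = 0.883).

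Complex IV, cytochrome c oxidase, had the smallest share of falls, with 3 of 16 tested members lower and 1 higher. Its share lower (18.75%) was near the 16.7% of all genes tested, and its median was -0.48, against -0.03 over all genes. Cox6a1, the general isoform of subunit 6A, had 485, 473 and 545 normalised CPM in input and 393, 175 and 246 in IP samples (log2 change -0.88 ± 0.28, adjusted p = 0.0373), a call that was lost without mouse 2 or mouse 3. Cox4i1, an early-assembled subunit, had 503, 457 and 575 in input and 703, 315 and 361 in IP samples, which overlapped (log2 change -0.16 ± 0.30, adjusted p = 0.750). Cox7b, a small membrane subunit, was lower by 1.06 ± 0.19 on the log2 scale (adjusted p = 0.00210). Of the ATP synthase genes 9 of 17 were lower, with a median of -0.79. Atp5b, the catalytic beta subunit (GRCm38 chr10:128083273-128090391, plus strand), had 1545, 1666 and 2049 normalised CPM in input and 371, 618 and 604 in IP samples, a fall in all 3 mice (log2 change -1.72 ± 0.25, adjusted p = 0.000646). Atp5a1, the alpha subunit beside it in the same ring, was 2.41-fold lower (adjusted p = 0.00195).

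**Figure D2:**
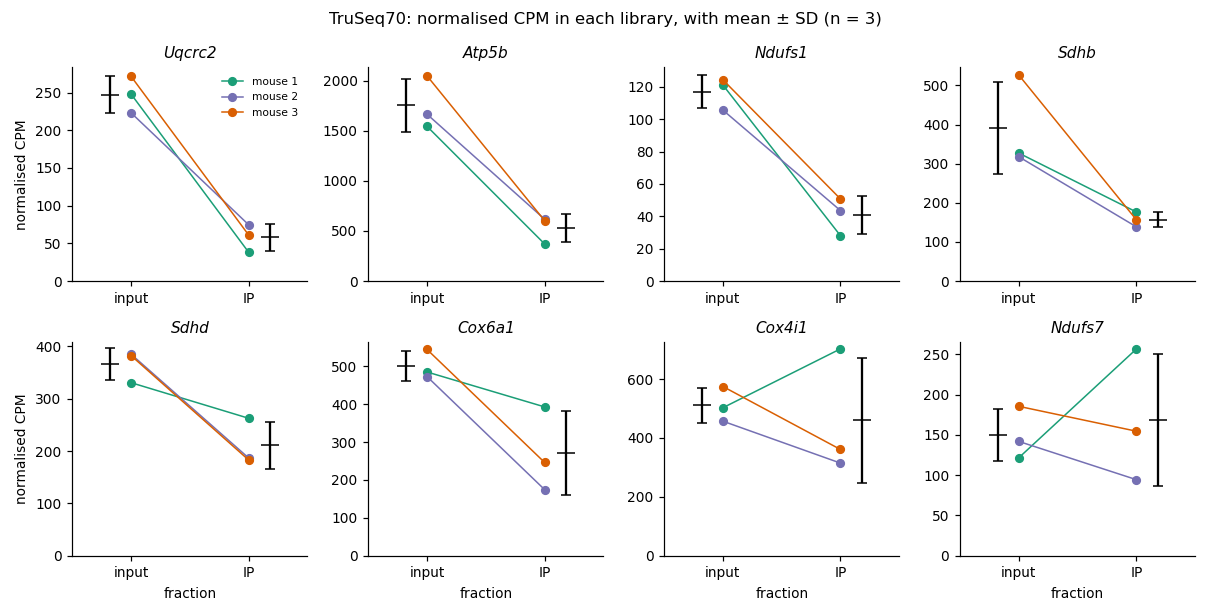
Normalised CPM (vertical axis, from 0) is plotted for the input and IP library of each mouse in TruSeq70, with lines joining the fractions of a mouse and bars for mean ± SD (n = 3). Uqcrc2, Atp5b, Ndufs1, Sdhb, Sdhd and Cox6a1 fell in every mouse, whereas in Cox4i1 and Ndufs7 mouse 1 rose and mice 2 and 3 fell.

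The mice did not differ from input by the same amount. In TruSeq70 the median log2 difference of IP and input over the 88 members was -0.34 in mouse 1, -0.98 in mouse 2 and -1.09 in mouse 3, and 64.8%, 93.2% and 95.5% of the members were lower in IP. Mouse 1 also had the smallest difference in TruSeq4 (-0.26 against -1.12 and -1.14), SMARTseq4 (-0.47 against -0.93 and -1.06) and SMARTseq0.25 (-0.54 in mouse 1 and -1.02 in mouse 3). The median over all genes stayed between -0.10 and 0.06 in these 12 pairs. The IP library of mouse 1 in TruSeq70 also held more normalised CPM of the 7 erythroid markers (219999, against 135511 and 102675) and of Rpl22 (146, against 68.7 and 61.7). The part of these differences in the result was not tested.

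In the other protocols, too, the members' median lay under that of all genes. TruSeq4 had 51 of 88 tested members lower (24.2% of all genes tested were) and 1 higher (25.9% of all genes), with a median log2 change of -0.81 over members and -0.05 over all genes. SMARTseq4 had 55 of 88 lower (28.7% of all genes) and 2 higher (30.4%), with medians of -0.81 and 0.01, and SMARTseq0.25 had 50 of 88 lower (17.1%) and 1 higher (19.8%), with medians of -0.87 and 0.06. NuGEN had 67 of 81 lower (20.9%) and 0 higher (24%), with medians of -1.27 and 0.02. NEB had 12 of 81 lower (5.34%) and 0 higher (5.82%), with medians of -0.80 and 0.02, and 33 members at an unadjusted p under 0.05. SMARTer, tested on scaled RPKM with limma, had 40 of 58 lower (19.4%) and 0 higher (33.7%), with medians of -0.59 and 0.14 and 45 members at an unadjusted p under 0.05. Without the scaling, on RPKM as deposited, 2 of the same 58 were lower, against 406 of all 5580 genes tested (medians -0.80 and -0.07). On SMARTer exon counts 4 of 24 members were lower, against 529 of all 4255 genes tested. These counts of calls do not set the members apart from other genes. Scaling by library totals in place of TMM factors raised the median of all genes to between 0.41 and 0.56 on the log2 scale in 5 protocols and to 1.60 in NuGEN, where the members' median then turned to 0.30 with 1 lower and 20 higher, and 49 of the 67 members called lower changed sign. Library totals changed the members' split of lower and higher calls to 27 and 8 in SMARTseq4 and to 27 and 4 in TruSeq4. Over all genes tested, lower and higher calls with library totals numbered 328 and 9064 of 12406 in NuGEN. In SMARTseq4 they numbered 2446 and 6660 of 15091, and in TruSeq4 1965 and 6035 of 15868. Relative to the median of all genes, the members' median in NuGEN was -1.29 with TMM factors and -1.30 with library totals.

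**Figure D3:**
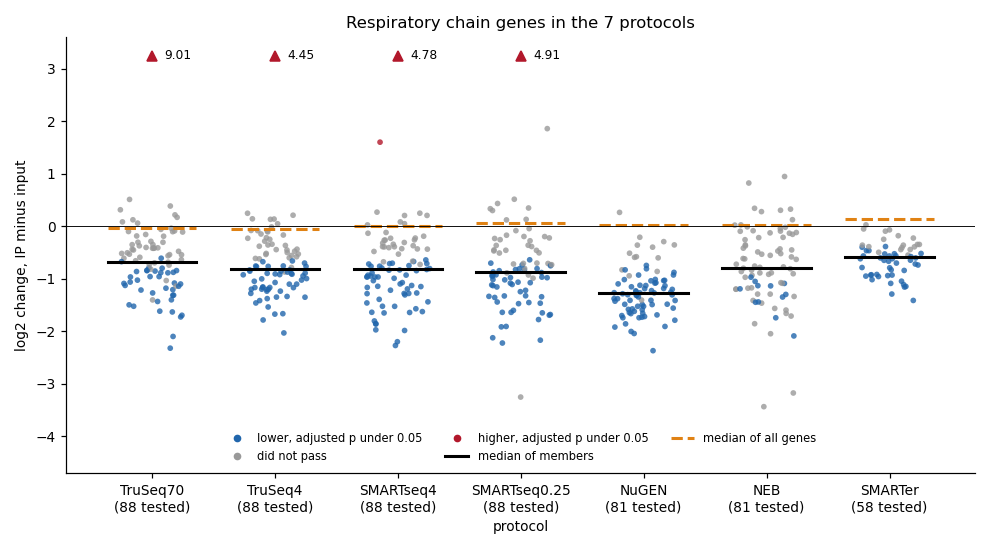
Each point is the log2 change of 1 member (IP minus input) in the protocol on the horizontal axis, coloured by whether it passed the test. The black median of members lies under the dashed median of all genes in all 7 protocols, NuGEN has the lowest members' median at -1.27, and triangles with written values are fitted values of Cox6a2 that lie off the axis.

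With the fractions as labelled, 0 members and 0 of all genes tested passed in NEB, NuGEN, TruSeq4 or SMARTer. These fits therefore do not set the members apart from other genes. The members' medians in them lay between -0.24 and -0.04. Without replicate 3 altogether, 1 member was lower in NEB, 53 in NuGEN, 22 in TruSeq4 and 18 in SMARTer, and 0 were higher in NEB, NuGEN or SMARTer. Over all genes tested, 216, 2039, 2740 and 583 were then lower in the same order, against 646, 2590, 3845 and 1083 with all mice. In NEB, 3 members were lower without mouse 1 and 0 without mouse 2, and the number of all genes lower fell to 346 and 217. Leaving out mouse 1 or mouse 2 gave 70 and 28 members lower in TruSeq4, 19 and 25 in SMARTer, and 39 and 27 in SMARTseq0.25 (31 without mouse 3). Over all genes, 3785 and 2620 were then lower in TruSeq4 and 667 and 760 in SMARTer. In SMARTseq0.25 this was 1721 and 1753 of all genes (1724 without mouse 3), against 2449 with all mice.

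Of the 56 members tested in all 7 protocols 9 were lower in each, among them Sdhb, Sdhd, Uqcrc2, Uqcrq, Cox7b and Atp5b, and 48 had a negative value in each. In the 4 TruSeq and SMART-Seq protocols, 35 of 88 members were lower each time. How many of all genes met the same conditions was not counted. These numbers therefore do not set the members apart from other genes. The log2 change of Atp5b was -1.72 in TruSeq70, -1.78 in TruSeq4, -2.20 in SMARTseq4, -2.12 in SMARTseq0.25, -1.74 in NEB and -0.93 in SMARTer. Uqcrc2 ranged from -2.27 in SMARTseq4 to -1.44 in NEB among the protocols with counts and was -0.56 in SMARTer. The 7 protocols thus gave the same sign for these genes, with the smallest sizes in the SMARTer RPKM. The members Ndufb3, Ndufaf5, Ndufa5, Cox5a, Ndufs7 and Ndufa2 passed as lower in none of the 6 protocols with counts. Among them Cox5a, the partner of Cox4i1 in early assembly, had 121, 100 and 131 normalised CPM in TruSeq70 input and 160, 105 and 118 in IP samples.

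Whether the IP change itself differed between protocols was tested with an F-test over the 36 libraries with counts. It passed for 0 of 89 members, against 2.97% of all 18582 genes tested (edgeR), with 6 members at an unadjusted p under 0.05 (6.74% of members and 16.0% of all genes) and 3 members by the DESeq2 likelihood ratio test (Sdhd, Ndufb2 and Atp5l, against 9.55% of all genes). The smallest adjusted p was 0.0668, for Ndufb2, an accessory subunit of complex I. Its log2 change was -0.09 in TruSeq70, -0.91 in TruSeq4, -1.52 in SMARTseq4, -1.64 in SMARTseq0.25, -2.37 in NuGEN and -0.08 in NEB. Exons of Ndufb2 share 145 bases with other genes on the same strand and 302 on the opposite strand. In TruSeq70 input its deposited RPKM corresponded to 17.2 reads per exon count, against a median of 1.03 over the members. Its counts may therefore miss reads, and the part of this in its values was not tested. The next smallest adjusted p belonged to Atp5l (0.143), Sdhd (0.156), Atp5g2 (0.236) and Cox4i2 (0.290). Leaving out replicates gave 0 to 2 members.

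Among the complex IV isoforms, Cox6a2 was the only member higher in IP samples in TruSeq70, and the only one higher in more than 1 protocol. Cox6a2 encodes the heart and skeletal muscle isoform of subunit 6A (GRCm38 chr7:128205435-128206387, minus strand). It had 0 exon counts in all 3 TruSeq70 inputs and 32, 86 and 110 in the IP of mice 1, 2 and 3, which is at least 57.9-fold higher when the input is set to 3 counts over its 3 libraries together. The same direction was seen with 11 counts in input and 259 in IP samples in TruSeq4 (21.6-fold in CPM), 13 and 367 in SMARTseq4 (29.3-fold) and 10 and 257 in SMARTseq0.25 (29.9-fold). Cox6a2 had enough counts to be tested in these protocols only through its IP libraries. The test therefore adds no support of its own to the counts. The adjusted p was 0.0130 in TruSeq70, 0.00435 in TruSeq4, 1.21e-05 in SMARTseq4 and 0.0339 in SMARTseq0.25. In TruSeq70 it became 0.0618 with the mouse as a block, 0.0660 without mouse 2 and 0.0775 without mouse 3, and in SMARTseq0.25 it became 0.0835 without mouse 2 and 0.121 without mouse 3. With the fractions as labelled the TruSeq4 value did not pass (adjusted p = 0.994), and without replicate 3 it did (adjusted p = 0.0188).

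The IP level of Cox6a2 was nevertheless low. Its mean in TruSeq70 IP samples was 2.11 ± 0.88 normalised CPM (SD, n = 3), while Cox6a1 stood at 271 ± 111 in the same libraries. NuGEN had 0 counts in input and 9 in IP samples, and NEB had 0 and 34, of which 33 were in the library of mouse 3, and neither was tested. The 5 skeletal muscle markers summed to 0 to 3.86 normalised CPM in the TruSeq70 IP libraries and 0 to 2.38 in the inputs, and Ckm and Atp2a1 of this list were at 0 in all 6 libraries. The direction of this sum differed between protocols. In SMARTer it was 0.42 to 0.79 scaled RPKM in input and 3.28 to 4.78 in IP samples. In SMARTseq0.25 it was 1.30 to 4.53 normalised CPM in input and 0 to 0.49 in IP samples. Exons of Cox6a2 share 70 bases with Itgad on the opposite strand, and TruSeq and SMART-Seq reads carry no strand, so reads on those bases cannot be told apart.

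**Figure D4:**
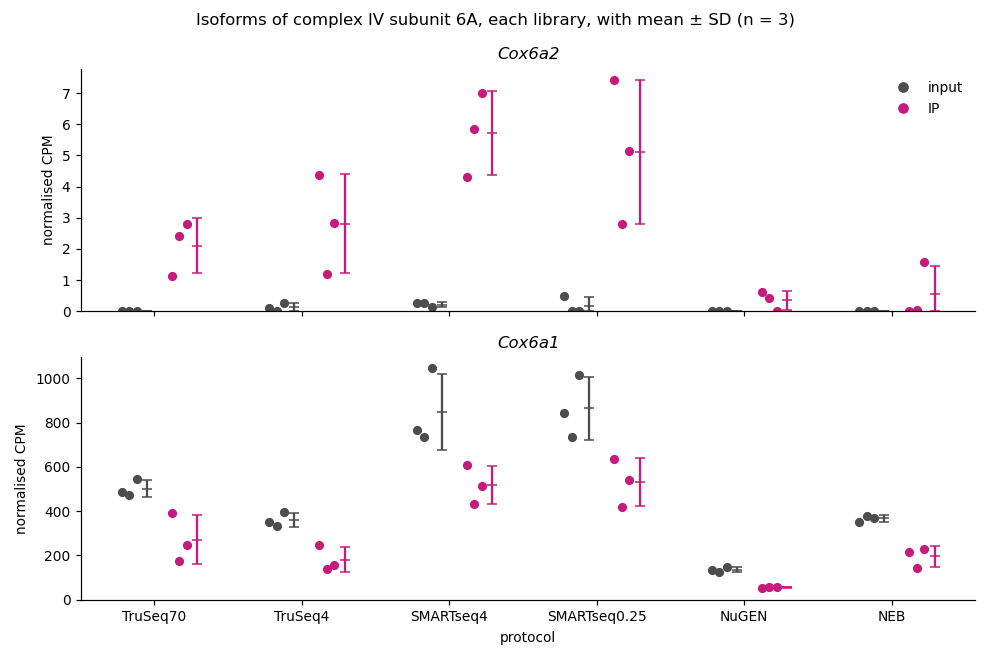
Normalised CPM of Cox6a2 (top) and Cox6a1 (bottom) is plotted for each input and IP library of the 6 protocols with counts, with bars for mean ± SD (n = 3) that end at 0 at the lower side. Cox6a2 is at or near 0 in input and up to 7.41 in IP samples, whereas the mean of Cox6a1 is lower in IP samples in each of the 6 protocols.

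The other tissue isoforms were near the limit of detection. Cox4i2, Cox7b2, Cox8b and Cox8c were tested in no single protocol, and in TruSeq70 each had 0 counts in all 6 libraries, which allows up to 3 counts over the 3 libraries of a group. Cox6b2, the testis isoform of subunit 6B, was higher in IP samples in SMARTseq4 with 84 counts in input and 255 in IP samples (log2 change 1.60 ± 0.43, adjusted p = 0.00878, and 0.0930 without mouse 3), but had 33 and 41 counts in TruSeq70. In NEB it had 1 count in input and 237 in IP samples, all of them in the library of mouse 1. Ndufa4l2, a homologue of the complex IV subunit Ndufa4, was lower in TruSeq4 (log2 change -1.46 ± 0.38) and SMARTseq4 (-1.31 ± 0.38) and did not pass in TruSeq70 (-0.61 ± 1.54). The general partners Cox6b1, Cox7a2 and Cox8a had negative log2 values in TruSeq70 that did not pass (-0.29, -0.69 and -0.35), as had Ndufa4 (-0.73, adjusted p = 0.0931) and Cox7a1 (-1.03). Atp5g1, Atp5g2 and Atp5g3 encode the same mature c-subunit of the ATP synthase rotor. Atp5g1 fell by 1.21 ± 0.28 and Atp5g3 by 0.85 ± 0.25 on the log2 scale in TruSeq70, both calls being lost without mouse 2 or mouse 3, and Atp5g2 had under 2.6 normalised CPM in every library.

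Levels between genes were compared as normalised CPM per kilobase of the median coding transcript. In TruSeq70 input Uqcrq, a small complex III subunit, stood highest at 974 ± 104 (SD, n = 3), before Atp5b at 915 ± 137, Cox6a1 at 877 ± 67.1, Atp5g3 at 815 ± 106 and Cox4i1 at 678 ± 78.6. Neighbours in this order did not differ beyond their spread. By role the median level was 264 for complex II, 220 for complex III, 173 for ATP synthase, 152 for the complex I core, 100.4 for its accessory subunits, 79.8 for complex IV and 12.6 for the assembly factors. Of the complex IV genes 5 were at 0 in input. The median of the 8 complex III genes includes 1 at 0, Uqcrc1, whose deposited input RPKM was 25.9.

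Some members share sequence with pseudogenes, and reads that fit several places were left out of the counts. For 23 of the 93 members at least 1 stretch of 60 coding bases, the length of a trimmed read, was found without mismatch in another annotated gene, and for 13 this held for most such stretches. It held for every stretch of Atp5g2, Atp5l, Cox7c and Ndufb4. An Atp5l stretch is shown because 7 processed pseudogenes hold it, and the first 60 coding bases of Atp5g2 because a read from there fits 2 pseudogenes as well. Positions count from the A of the start codon, and no letter is in capitals since no base differs.
Atp5l, coding bases 211 to 270: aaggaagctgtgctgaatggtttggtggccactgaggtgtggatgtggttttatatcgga
Atp5g2, coding bases 1 to 60: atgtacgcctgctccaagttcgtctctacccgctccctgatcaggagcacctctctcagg
Atp5l had 4.71 to 12.6 normalised CPM in TruSeq70. Its positive log2 value there (0.39 ± 0.51) and the fall of Cox7c (-1.69 ± 0.46, adjusted p = 0.0197) are therefore uncertain, and neither gene had the same sign in every protocol that tested it. With the 24 members that have a near-identical copy left out, 29 members were lower and 1 higher in TruSeq70. With them in, the numbers were 38 and 1 of 88 tested. Of all genes tested, 16.7% were lower and 18.1% higher.

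The promoters of the members were set beside their change, because the factors NRF1, GABP (an ETS factor) and YY1 are known to drive many respiratory chain genes. RefSeq (GRCm38.p6) windows of 250 bases before to 50 after the start were found for 74 members and 16387 coding genes, and both strands were searched. The NRF1 motif (GCGCA and GCGC with any 1 base between them) was present in 25.7% of members and 7.49% of all genes, the ETS motif CCGGAAG in 24.3% and 13.4%, the YY1 motif AAGATGGC in 13.5% and 3.66%, and the letters TATAAA in 9.46% and 14.2%. The motifs were chosen with earlier results of these data known, and the letters are a description and not a shown site. In TruSeq70, 10 of 18 tested members with the NRF1 letters were lower (median -0.83) and 19 of 53 without them (median -0.59). For the ETS letters this was 7 of 18 and 22 of 53, for YY1 3 of 10 and 26 of 61, and for TATAAA 0 of 5 and 29 of 66. Sdhd and Cox6a1 are shown as examples that hold the letters, and Atp5b as the most strongly lowered of the ATP synthase genes, which holds none, each with 120 bases before the annotated transcript start and NRF1 or ETS letters in capitals.
Sdhd, chr9:50603850-50603969, minus strand: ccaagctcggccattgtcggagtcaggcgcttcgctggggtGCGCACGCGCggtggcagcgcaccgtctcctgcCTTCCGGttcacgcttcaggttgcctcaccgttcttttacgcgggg
Cox6a1, chr5:115348982-115349101, minus strand: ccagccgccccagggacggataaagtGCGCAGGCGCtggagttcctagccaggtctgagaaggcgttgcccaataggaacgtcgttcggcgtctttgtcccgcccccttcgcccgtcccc
Atp5b, chr10:128083153-128083272, plus strand: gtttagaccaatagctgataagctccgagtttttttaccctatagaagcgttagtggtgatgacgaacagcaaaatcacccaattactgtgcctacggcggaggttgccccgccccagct
Of the genes for the factors themselves, Gabpa had 43.5, 52.6 and 43.4 normalised CPM in TruSeq70 input and 23.6, 28.0 and 26.5 in IP samples (log2 change -0.84 ± 0.21), and Yy1 also fell by 0.84 ± 0.21 on the log2 scale. Nrf1 was higher, with 9.24, 18.4 and 6.46 in input and 37.5, 41.6 and 19.2 in IP samples (log2 change 1.52 ± 0.45, adjusted p = 0.0259). Ppara, a receptor that drives fatty acid oxidation in hepatocytes, fell by 2.75 ± 0.28. Of the 8 regulators listed 3 were lower and 1 higher.

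The members were also counted by transcript length. In TruSeq70, 6 of 28 tested members with a median coding transcript under 600 bases were lower (median log2 change -0.48), and 4 of 19 of 600 to under 800 bases (-0.44), 11 of 16 of 800 to under 1200 bases (-1.01) and 17 of 25 of 1200 bases or more (-0.88). Over all coding genes the share lower was 17.4%, 11.95%, 17.9% and 17.9% in the same classes, with medians by class of -0.07, 0.22, -0.02 and -0.01. SMARTseq4 had 12 of 28, 7 of 19, 13 of 16 and 23 of 25 members lower, against 25.6%, 24.1%, 33.9% and 30.3% of all coding genes. In NuGEN the classes gave 19 of 23, 16 of 18, 11 of 15 and 21 of 25, against 44.6%, 30.3%, 29.9% and 20.02%. The part of length in the difference between roles was not tested.

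Neighbouring pathways were described by lists of their genes in TruSeq70. All 7 tested of the 13 respiratory chain genes encoded in mitochondrial DNA, which are translated by mitochondrial and not by tagged cytosolic ribosomes, were lower, with a median log2 change of -4.79. Citric acid cycle genes were lower in 9 of 13 cases (median -0.76). Suclg1, a subunit of succinyl-CoA ligase, fell by 2.36 ± 0.36 and Idh3b, of NAD-dependent isocitrate dehydrogenase, by 1.70 ± 0.20, while Ogdh and Dlst of the oxoglutarate dehydrogenase complex fell by 0.66 ± 0.19 and 0.57 ± 0.19. Etfdh and Etfa, which feed electrons of fatty acid oxidation into ubiquinone, fell by 2.42 ± 0.32 and 1.79 ± 0.17, the 2 of 4 genes of that list that passed. Cyc1, cytochrome c1 of complex III, whose symbol lies outside the rule, had 416, 450 and 515 normalised CPM in input and 129, 111 and 156 in IP samples (log2 change -1.80 ± 0.20, adjusted p = 0.000165).

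Transport and assembly genes were less uniform. The ADP/ATP carrier gene Slc25a5 fell by 1.46 ± 0.25 and the porin gene Vdac1 by 1.36 ± 0.18, whereas Slc25a4, the carrier isoform of heart and muscle, was higher, with 10.6, 14.5 and 25.8 normalised CPM in input and 56.9, 61.3 and 67.9 in IP samples (log2 change 1.87 ± 0.33, adjusted p = 0.00212). These were the 3 of 6 carriers and porins that passed. Of 16 tested assembly genes of complexes III and IV 4 were lower, among them Cox11 (-3.29 ± 1.13), Bcs1l (-2.47 ± 0.51) and Uqcc1 (-0.95 ± 0.26), and Cox14 was higher (0.97 ± 0.29). Of 13 assembly genes of complexes I, II and V outside the rule, Ecsit (-1.59 ± 0.22) and Acad9 (-1.28 ± 0.34) were lower. The mitochondrial ribosomal protein genes had 20 lower and 2 higher of 76 (median -0.38), and the cytosolic ribosomal protein genes 8 lower and 1 higher of 80 (median 0.13). Of all genes tested in TruSeq70, 16.7% were lower and 18.1% higher.

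The input libraries of 5 protocols were compared with those of TruSeq70 in a fit of 18 libraries, to see how the measured level of the same RNA differed between protocols. According to the paper, the SMART-Seq libraries were sequenced at another site, on another instrument and with longer reads. For them the kit and the sequencing cannot be told apart. Of 87 members tested, SMARTseq4 had 61 higher (9.72% of all genes tested were) and 1 lower (9.31%), with a median log2 difference of 1.11 over members and 0.04 over all genes. SMARTseq0.25 had 62 higher (10.6%) and 1 lower (11%), with a median of 1.17 against 0. NuGEN had 48 lower (18.5%) and 5 higher (14.6%), with a median of -0.77 against -0.03, and with library totals 74 lower and 1 higher, with a median of -1.78 against -1.03. NEB had 20 lower (12.3%) and 9 higher (4.51%), with a median of -0.25 against -0.10. TruSeq4, the same kit with less RNA and a modified protocol, had 4 lower (0.118%) and 0 higher (0.224%). Its median was -0.12 against 0.04, with 24 members at an unadjusted p under 0.05. The paper's TruSeq4 protocol also reduced the end repair, left out size selection and changed the number of PCR cycles. The amount of RNA cannot be told apart from these changes. The member lower in both SMART-Seq protocols was Cox7a2l, a factor of supercomplex assembly.

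The highest median by role in SMARTseq4 was that of the accessory subunits of complex I, of which 26 of 29 were higher in SMARTseq4, with a median log2 difference of 1.35. Ndufb2 had 2.85, 1.43 and 2.65 normalised CPM in TruSeq70 input and 41.3, 39.2 and 53.6 in SMARTseq4 (log2 difference 4.28 ± 0.41, adjusted p = 8.18e-07). Ndufc1, another accessory subunit, had 11.7, 14.3 and 15.1 in TruSeq70 and 157, 153 and 210 in SMARTseq4. In neither gene did the groups overlap. Ndufb2 had only 85, 55 and 94 exon counts in the TruSeq70 inputs, and its values are uncertain because of the shared exons given above. By transcript length, the median of members in SMARTseq4 was 1.29, 1.51, 0.88 and 0.76 in the classes from under 600 to 1200 bases or more, and that of all coding genes 1.17, 0.91, 0.65 and -0.05. In NuGEN the 7 core subunits of complex I were all lower. Uqcrq had 363, 339 and 417 normalised CPM in TruSeq70 input and 57.6, 63.2 and 63.4 in NuGEN (log2 difference -2.60 ± 0.13, adjusted p = 1.74e-10).

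The 4 members lower in TruSeq4 input were Uqcr10, Uqcrq, Ndufb7 and Cox4i1. Uqcrq had 195, 186 and 206 normalised CPM there, under all TruSeq70 values (log2 difference -0.93 ± 0.13, adjusted p = 0.00193). With the mouse as a block, 16 members were lower and 1 higher in TruSeq4. Without mouse 1 or mouse 2 the count of lower members was 0, without mouse 3 the count was 1, and as labelled it was 0. Over all genes tested the counts lower in these fits were 0, 0, 3 and 0, against 19 in the main fit. Without replicate 3, the members lower and higher were 46 and 5 in NuGEN and 20 and 9 in NEB, and with the fractions as labelled they were 39 and 1 and 10 and 2. Without mouse 1 NEB had 11 lower and 5 higher, and without mouse 2 it had 5 higher. As labelled, SMARTseq4 and SMARTseq0.25 had 35 and 38 members higher.

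**Figure D5:**
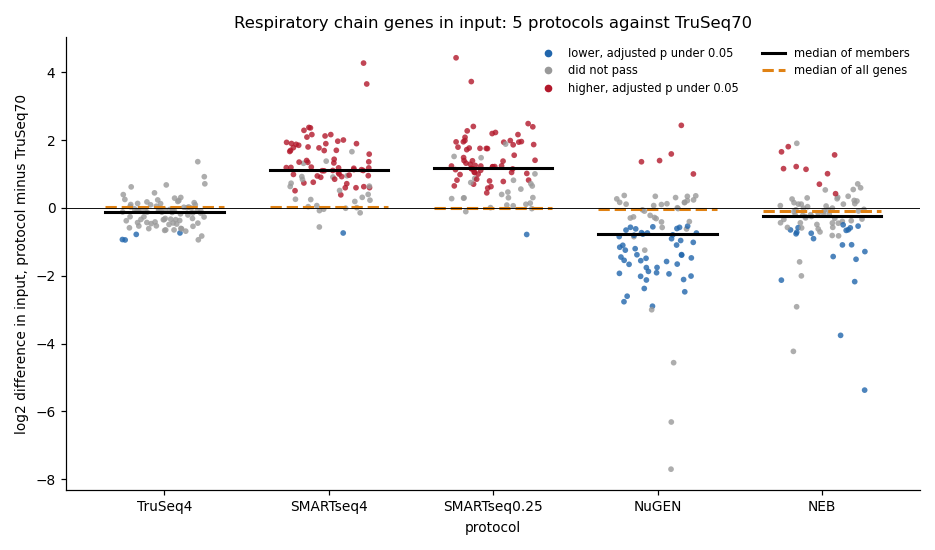
Each point is the log2 difference of 1 member in the input of the protocol on the horizontal axis against TruSeq70 input, coloured by whether it passed the test. The members' median lies above that of all genes in both SMART-Seq protocols (1.11 and 1.17) and below it in NuGEN (-0.77).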

How the data were processed

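RNA of the input and IP fractions of 3 mice was measured in 42 libraries. The authors trimmed the reads to 60 bases, aligned them with TopHat to mm10 and counted exon reads with HTSeq, leaving out reads that aligned to several places. The deposited exon counts were used for 6 protocols. The deposited RPKM were used for SMARTer, whose exon counts held few reads. How the authors set the gene length of these RPKM is not given in the sources used here. Judged from their ratio to the exon counts, they appear to be per genomic span and to include reads from introns or with several alignments, and levels were therefore compared between genes only as CPM per kilobase from counts.

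Numbers of detected features matched the study's table for 34 of 42 libraries as labelled and for 42 of 42 after fractions of replicate 3 were exchanged in 4 protocols. Counts were tested per protocol with edgeR 4.0.16 (TMM factors, filterByExpr, quasi-likelihood test, Benjamini-Hochberg adjustment over all genes, threshold 0.05) in R 4.3.3. SMARTer was tested with limma 3.58.1 on log2(scaled RPKM + 0.5), for genes with RPKM of at least 1 in 3 libraries, a scale on which changes of low genes are understated. Differences between protocols were tested in 1 edgeR fit of 36 libraries and differences between inputs in 1 fit of 18. DESeq2 1.42.0, library totals, no filter, the mouse as a block, RPKM, the fractions as labelled and each replicate left out were alternatives, and the count test was tested on simulated data. Replicate numbers mark mice: the deviations of the fractions of a mouse correlated at 0.004 to 0.373, over 0.1 in 15 of 21 pairs. No pair of libraries was a duplicate. The floor of 3 counts covers counting error only, whereas the SE and SD given include the spread between libraries.

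Members and lists were chosen with earlier results of these data known. Named were, per role, the members with the highest input RPKM and the highest and lowest change, the isoforms and c-subunit genes, those higher in IP in at least 2 of 3 protocols, those called in opposite directions, the 5 with the smallest F-test p, and up to 4 genes per pathway list; other genes were named after their values were seen. The values of 1 member are not reported here. Gene names and positions are from GENCODE (GRCm38), with 47310 of 47729 identifiers found.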

Additional observations from a re-analysis of the deposited data

Results flagged for a closer look

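Uqcrc1, a core protein of complex III, had almost no exon counts, while the RPKM deposited for the same input libraries were well above 0. Mean input RPKM was 25.9 in TruSeq70 with 0 exon counts in the 3 libraries together, 15.4 in TruSeq4 with 2 counts, 32.1 in SMARTseq4 with 1, 32.0 in SMARTseq0.25 with 0, 1.76 in NuGEN with 0 and 25.9 in NEB with 0. In TruSeq70 the RPKM were 21.2, 24.2 and 32.4 in input and 10.9, 13.2 and 17.1 in IP samples of mice 1, 2 and 3, so that the fractions did not overlap (limma, log2 scale, adjusted p = 0.0110). The cause of the difference between the measures was not tested. Groups of 3 were not tested for a sample far from the others.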

How the results depend on the processing

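With library totals, lower and higher members numbered 19 and 2 in TruSeq70, 27 and 4 in TruSeq4, 27 and 8 in SMARTseq4, 23 and 3 in SMARTseq0.25 and 1 and 20 in NuGEN, and 2 were lower in NEB; 5 passed the F-test, and NuGEN input had 74 lower and 1 higher. Over all genes these calls numbered 1460 and 3815 in TruSeq70, 1965 and 6035 in TruSeq4, and 2446 and 6660 in SMARTseq4. They numbered 1483 and 4019 in SMARTseq0.25 and 328 and 9064 in NuGEN, and 414 genes were lower in NEB. In NuGEN input 5895 of all genes were lower and 786 higher. With the fractions as labelled, 0 members and 0 of all genes were lower in NEB, NuGEN, SMARTer and TruSeq4, and 0 were higher in TruSeq4. In input this gave 10 lower and 2 higher in NEB, 1 higher in NuGEN, 0 lower and 38 higher in SMARTseq0.25, 0 lower and 35 higher in SMARTseq4, and 0 lower in TruSeq4. DESeq2 gave 19 of 81 lower in NEB (981 of all 12099 genes) and 12 of 87 lower in TruSeq4 input (136 of all 16083). By the likelihood ratio test it gave 3 of 89 (1774 of all 18582). RPKM with limma, chosen after seeing the data, gave 6 of 75 lower in NEB, against 762 of all 7492 genes. This count in NEB does not set the members apart from other genes. In NuGEN it gave 35 lower and 1 higher of 71, against 979 and 2959 of all 7436 genes. Higher members numbered 2 in SMARTseq0.25, 1 in SMARTseq4, 2 in TruSeq4 and 0 in TruSeq70. Over all genes 1816, 2017, 2492 and 2156 were higher in the same order. SMARTer had 2 of 58 lower with RPKM as deposited (406 of all 5580 genes) and 4 lower of 24 with exon counts (529 of all 4255 genes). With no filter it had 2 of 92 higher (6166 of all 32603 genes). With the replicate block, 0 were higher in TruSeq70 (2604 of all 14707 genes), and 1 passed the F-test. In TruSeq4 input 16 were lower and 1 higher (150 and 143 of all 16083 genes). The block moved no other count by more than 1.5 times. The causes were not tested.

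Leaving out replicates, members lower in IP numbered 0 to 3 in NEB, 53 to 63 in NuGEN, 18 to 25 in SMARTer, 27 to 39 in SMARTseq0.25, 41 to 61 in SMARTseq4, 22 to 70 in TruSeq4 and 15 to 45 in TruSeq70. The number of all genes called lower was smaller in each of these fits than with all mice. Members higher in IP numbered 0 to 1 in SMARTseq0.25 and TruSeq70, 1 to 2 in SMARTseq4, 1 in TruSeq4 and 0 elsewhere. In input the lower members numbered 11 to 20 in NEB, 34 to 46 in NuGEN and 0 to 1 in TruSeq4 and both SMART-Seq protocols, and the higher ones 5 to 9 in NEB, 4 to 5 in NuGEN, 50 to 59 in SMARTseq0.25, 43 to 57 in SMARTseq4 and 0 in TruSeq4. The F-test gave 0 to 2. For the named members in TruSeq70, and Atp5b, Cox6a2 and Cox6b2 in the other protocols, 318 values kept direction and call, 31 lost the call, 10 gained it and 26 changed sign without passing before or after. Named members were not followed in the other protocols, where signs did change: 49 of 67 called members in NuGEN with library totals and 10 with the fractions as labelled. Cox4i2, Cox7b2, Cox8b and Cox8c had too few counts to be tested in a single protocol.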
